A study of Rattus norvegicus with 54 samples.

Results

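The 12 libraries described here came from rat cortical cultures that received no virus, harvested at 6 h or 24 h, and they were chosen by their labels from the 54 libraries of the series. There were 6 libraries at 6 h and 6 at 24 h. At each time, 3 came from standard medium with magnesium and 3 from medium without magnesium, which the labels call the epileptic condition. The series counts its times from the induction of epileptiform activity, and cultures in standard medium were taken at the same times. The comparison asks which transcripts were higher or lower at 24 h than at 6 h, over both media.

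All cultures were neurons from the cortex of rat embryos at day 18 (E18), and every group held 3 cultures numbered 1 to 3 in the labels as biological replicates. The whole series crossed 3 constructs (none, AAV-SYN-GFP as control virus, and AAV-SYN-rMBD3-GFP for overexpression of Mbd3) with the 2 media and 3 time points, 2 h, 6 h and 24 h. The untransfected cultures carried neither virus. The labels do not say how many embryos went into a culture. Medium and culture number entered the main tests as blocks. The p-values thus measure the spread left among libraries after both, with the 2 media of a culture counted separately. They do not measure the spread between cultures. In such bulk libraries, fewer cells of a type and less RNA per cell cannot be told apart.

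As background, magnesium ions block the pore of NMDA-type glutamate receptors near the resting potential, and neurons in magnesium-free medium fire in recurrent synchronous bursts. Cultured embryonic cortical neurons also change their transcripts as they grow and form synapses. Genes with very long introns are common in neurons and include many that encode synaptic adhesion molecules and ion channels.

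The count table gave genes by Ensembl identifier, and 0 of its identifiers matched the symbol table at hand. The labelled cell type was therefore not checked against marker genes, pathways are not described, and no promoter or miRNA sequence was tied to a gene. Genes are described by identifier, position on mRatBN7.2, length and level. The 12 libraries held 21838370 to 31912791 counts assigned to genes (median 26854438). A total of 3 counts, the floor used here, corresponded to 0.0940 to 0.137 CPM (counts scaled to library size in the usual unit) by unadjusted library totals. The floor covers counting error only. The CPM values below were also adjusted by a scaling factor for each library, so they differ slightly in scale from the floor.

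Of 15844 genes tested, 885 were higher and 964 were lower at 24 h at an adjusted p under 0.05 (edgeR quasi-likelihood test with medium and culture number as blocks, Benjamini-Hochberg adjustment). These are 5.59% and 6.08% of the genes tested, 11.7% in all, and the words rose and fell are used below for these genes. The median log2 fold change was 0.88 among genes that rose and -1.14 among genes that fell, against 0.04 over all genes tested. A change of at least 1 on the log2 scale was seen for 356 of the 885 and for 569 of the 964. At least 2 on that scale was reached by 76 and 88 genes.

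Most of these genes moved the same way in each of the 6 pairs of libraries with the same medium and culture number, 722 of the 885 and 842 of the 964. The 6 h and 24 h libraries did not overlap at all for 287 genes that rose and 297 that fell, where 316 (1.99%) and 358 (2.26%) of all genes tested showed such a separation. Together, the genes that rose took 3.01% to 4.14% of the counts of a 6 h library and 4.55% to 7.57% of a 24 h library. The genes that fell took 7.38% to 10.51% at 6 h and 3.45% to 6.91% at 24 h. These genes were selected on the same libraries, so agreement among the pairs was partly built in, and the same count over all genes tested was not taken. The pair counts, the separation and the shares of counts are a description only.

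The number of genes called rested on particular cultures. Without culture 2 the same fit called 75 genes (38 higher, 37 lower), and 73 of them were among the 1849. Without the 24 h library of culture 3 in magnesium medium, an omission chosen after seeing the data, it called 3647 (1576 higher, 2071 lower), including 1814 of the 1849. That library had the lowest scaling factor of the 12 (0.872, the others 0.921 to 1.05), and its 50 most abundant genes took 16.1% of its counts, the highest of the 12.

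**Figure D1:**
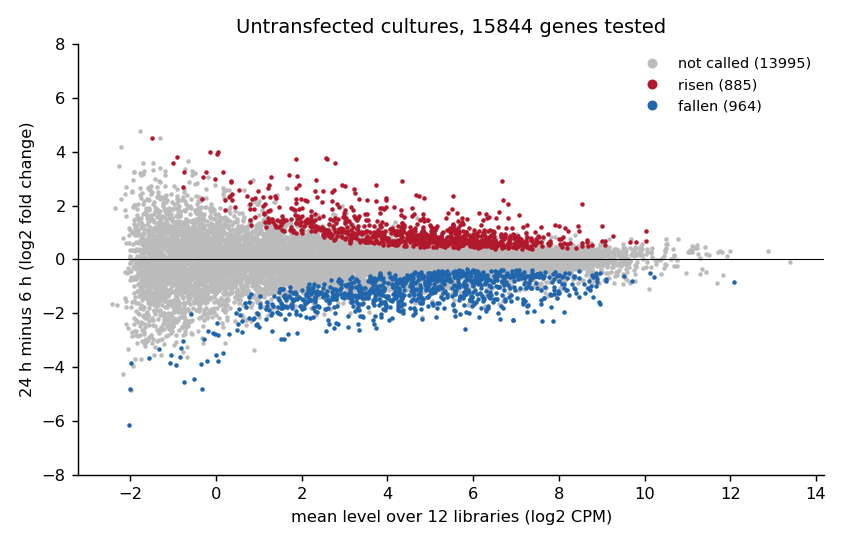
Each point is a gene, with its mean log2 CPM over the 12 untransfected libraries on the horizontal axis and its log2 fold change, 24 h minus 6 h, on the vertical axis. Red marks the 885 genes that rose, blue the 964 that fell and grey the genes that did not pass the threshold.

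Genes were then named by size. Among genes that passed the threshold, with a mean log2 CPM of at least 2, the same sign in all 6 pairs and no overlap between times, the 15 with the largest rise and the 15 with the largest fall were taken. The separation of the times in these genes, given with their values below, was thus required by the choice. The 15 rises had log2 fold changes of 2.30 to 3.76 and lay on 9 chromosomes. The 15 falls had log2 fold changes of -2.65 to -2.24 and lay on 11 chromosomes. The first 2 in each direction are given in full; larger changes occurred among genes outside these limits.

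The largest of these rises was that of ENSRNOG00000013179, on the minus strand of chromosome 5 from 142513714 to 142523720, with 2000 bases of exon. Its 6 h libraries had 0.0365, 0.678 and 1.93 CPM (lowest, median and highest), and its 24 h libraries 2.41, 8.93 and 21.7 CPM. Every 24 h library was above every 6 h library, and the 2 libraries of culture 2 were the highest at 24 h. The lowest 6 h value, from culture 1 in magnesium-free medium, rested on 1 count and lay below the floor.

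The mean of ENSRNOG00000013179 went from 0.807 ± 0.673 to 10.7 ± 7.62 CPM (SD, n = 6 at each time). This is a log2 fold change of 3.76 ± 0.43 (SE; edgeR adjusted p = 0.000904). At 2 h the untransfected libraries had 0.301 ± 0.123 CPM (SD, n = 6), so the gene was low at both early times. The change was 3.92, 3.83 and 3.54 on the log2 scale in cultures 1, 2 and 3.

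ENSRNOG00000015049 lay on the minus strand of chromosome 8 from 119220905 to 119318769, with 8541 bases of exon. Its 6 h libraries had 0.521, 0.902 and 1.49 CPM (lowest, median, highest) and its 24 h libraries 5.51, 11.8 and 21.1 CPM. No library of one time reached the range of the other. The gene rose by 3.57 ± 0.34 on the log2 scale (SE; edgeR adjusted p = 0.000438), with 4.42, 3.20 and 3.10 in cultures 1, 2 and 3. Per kilobase of exon, ENSRNOG00000015049 reached a mean of 1.44 CPM at 24 h and ENSRNOG00000013179 reached 5.34.

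The largest of these falls was that of ENSRNOG00000014149, on the minus strand of chromosome 16 from 23037789 to 23046759, with 2618 bases of exon. It had 6.85, 9.14 and 13.5 CPM at 6 h (lowest, median, highest) and 0.314, 1.74 and 4.40 CPM at 24 h. The times did not overlap, and both 24 h libraries of culture 2 were the lowest of the 12. Its mean of 27.1 ± 6.13 CPM at 2 h was followed by 9.64 ± 2.49 CPM at 6 h and by 1.91 ± 1.52 CPM at 24 h (SD over 6 libraries).

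The log2 fold change of ENSRNOG00000014149 from 6 h to 24 h was -2.65 ± 0.50 (SE; adjusted p = 0.00785, edgeR). By culture it was -2.43, -4.66 and -1.21. It no longer passed when culture 1 or culture 2 was left out (-2.79, adjusted p = 0.0721, and -1.90, adjusted p = 0.0591, both edgeR).

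ENSRNOG00000002013 lay on the plus strand of chromosome 11 from 56363512 to 56459050, with 3738 bases of exon. Its 6 h libraries had 14.6, 15.7 and 23.1 CPM (lowest, median, highest) and its 24 h libraries 0.802, 2.79 and 6.13 CPM, again without overlap. Its mean of 41.4 ± 7.10 CPM at 2 h was followed by 16.8 ± 3.20 CPM at 6 h and by 3.02 ± 1.93 CPM at 24 h (SD over 6 libraries). The log2 fold change from 6 h to 24 h was -2.63 ± 0.32 (SE; adjusted p = 0.00119, edgeR), with -2.17, -3.37 and -2.42 in cultures 1, 2 and 3.

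The other 13 genes of each direction are summarised with these by their levels. Over the 15 that rose, the genes' mean levels had a median of 2.08 CPM at 2 h, then 2.90 CPM at 6 h, then 16.1 CPM at 24 h. The 2 h mean was below the 6 h mean in 13 of the 15. Over the 15 that fell, that median was 38.8 CPM at 2 h, then 16.8 CPM at 6 h, then 3.87 CPM at 24 h, with the 2 h mean above the 6 h mean in 13 of the 15. The 2 h libraries took no part in choosing these genes, but the 6 h libraries did, so the order from 2 h to 6 h is given as levels without a test. Most of these 15 falling genes thus had a lower mean at each later time, the smallest of these differences from 2 h to 6 h being from 10.1 to 10.0 CPM. The median of the 15 rising genes was low at 2 h and 6 h and high at 24 h.

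**Figure D2:**
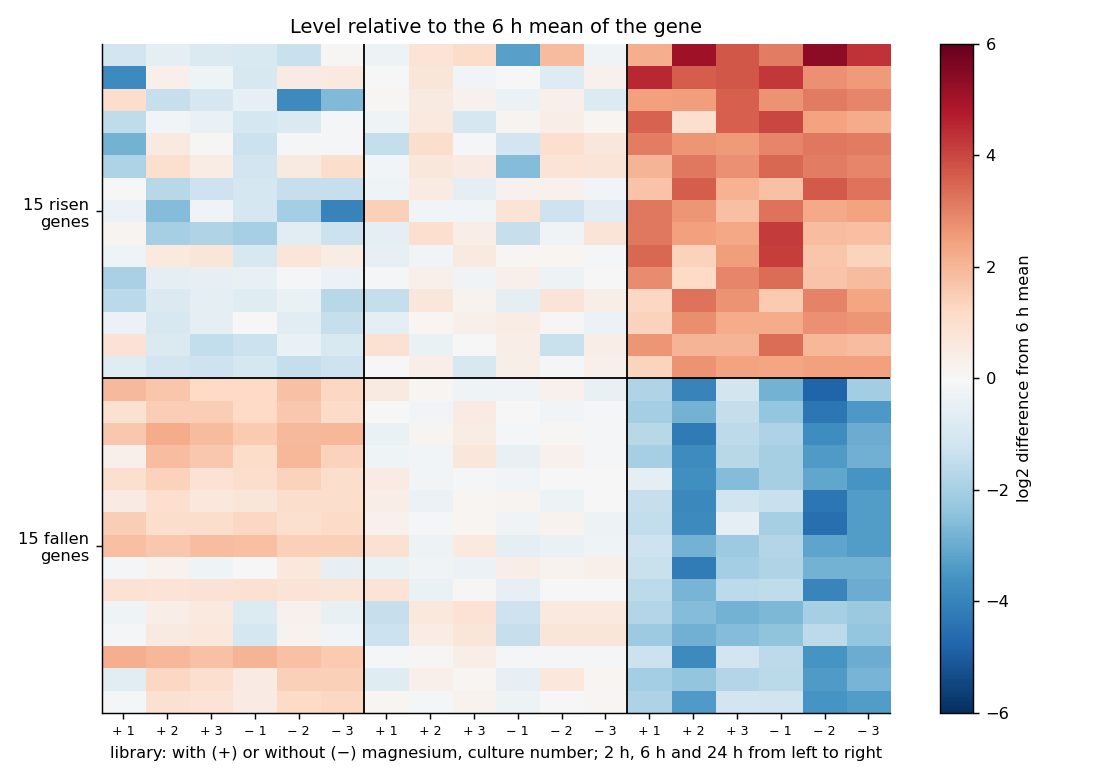
Rows are the 15 genes with the largest rise and the 15 with the largest fall, columns are the 18 untransfected libraries at 2 h, 6 h and 24 h, and colour is the log2 difference from the gene's 6 h mean. The rising genes are red mainly in the 24 h columns, and the falling genes are blue in the 24 h columns; 13 of the 15 have a 2 h mean above their 6 h mean.

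**Figure D3:**
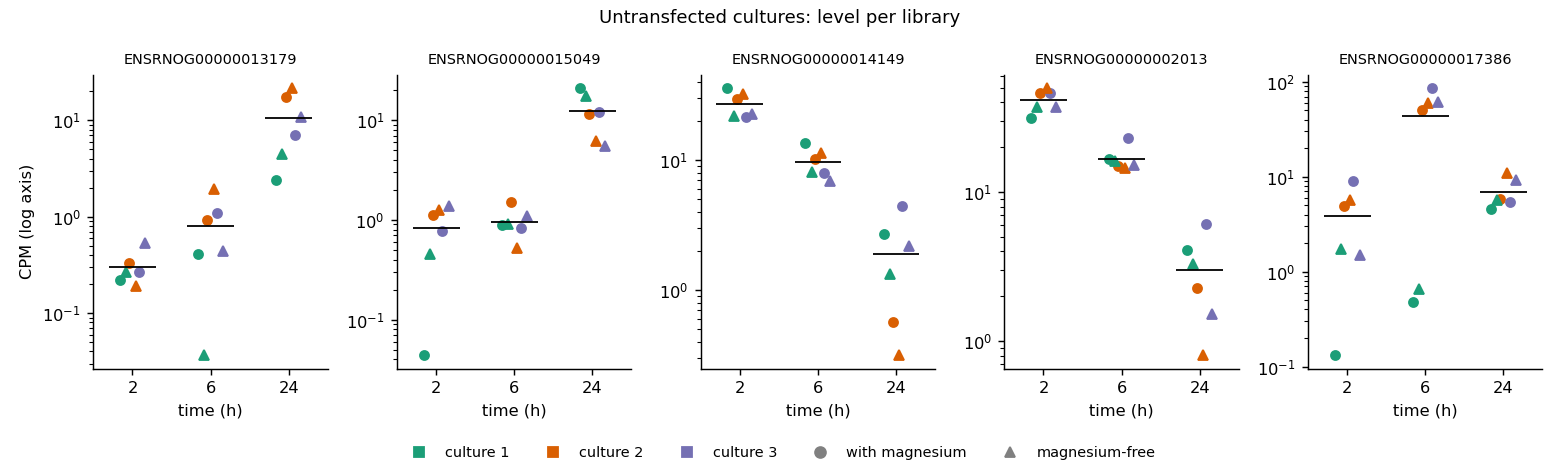
Each panel is a gene and each point a library, with time in h on the horizontal axis, CPM on a log axis, colour for the culture number, shape for the medium and a line at the mean of 6 libraries. The first 4 genes were chosen to have 24 h libraries entirely above or below their 6 h libraries. At 6 h, ENSRNOG00000017386 has both libraries of culture 1 far below the other 4.

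The size of the change was then set out by culture. In the 6 pairs, the median log2 difference over the 885 genes that rose was 0.67 to 0.95. Over the 964 genes that fell it was -0.75 and -0.87 in culture 1 (with and without magnesium), -1.52 and -1.54 in culture 2, and -0.72 and -1.40 in culture 3. At 24 h, mitochondrial transcripts took 3.16% and 4.07% of counts in culture 1, 1.75% and 1.77% in culture 2, and 4.90% and 2.73% in culture 3, in the same order of media. The 3 libraries with the highest mitochondrial share at 24 h belonged to the 3 pairs with the smallest fall. The part of this share in the result was not tested.

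The first principal component of the 12 libraries held 31.5% of their variance. Culture number accounted for 71.3% of it and time for 11.3%. On the second component, with 18.5% of the variance, time accounted for 69.0% and culture number for 19.5%, and medium accounted for 2.30% and 1.21% of the first and second. Culture number thus accounted for more of the first component than time did.

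**Figure D4:**
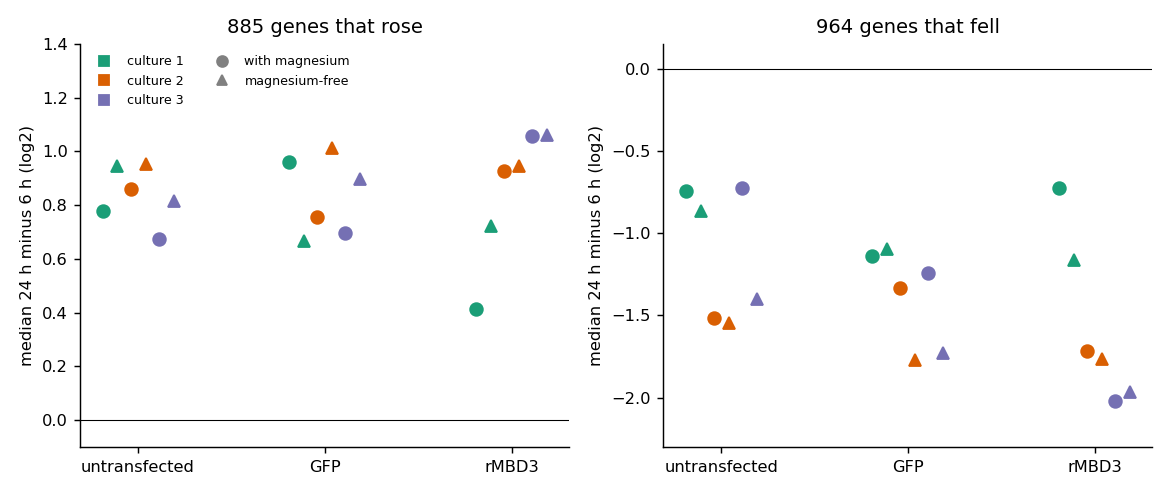
Each point is a pair of libraries with the same medium and culture number, and the vertical axis is the median log2 difference, 24 h minus 6 h, over the 885 genes that rose (left) or the 964 that fell (right) in the untransfected cultures. The genes were chosen on the untransfected pairs, whose values are a description. The GFP and rMBD3 pairs come from other libraries of the same culture numbers and lie on the same side of 0.

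The direction of change was not the same in every culture for all genes. In a test of whether the time effect differed among the 3 cultures, added after seeing the data, 1 of 15844 genes (0.00631%) passed, ENSRNOG00000017386 (adjusted p = 0.00611, edgeR), and 1153 had an unadjusted p under 0.05. This gene lies on the plus strand of chromosome 1 from 69068137 to 69076129, with 1699 bases of exon, and it is named here because of that result.

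At 6 h ENSRNOG00000017386 had 0.483 and 0.657 CPM in culture 1 (with and without magnesium), 50.8 and 59.6 in culture 2, and 86.3 and 61.2 in culture 3. At 24 h all 6 libraries lay between 4.53 and 10.8 CPM. The log2 change was thus 3.18 in culture 1, -2.72 in culture 2 and -3.36 in culture 3. Its mean was 43.2 ± 35.05 CPM at 6 h and 6.94 ± 2.51 at 24 h (SD, n = 6), and over the 3 cultures the time effect did not pass (-1.61 ± 1.02, SE; adjusted p = 0.34, edgeR).

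In the virus cultures, too, culture 1 had the lowest 6 h levels of this gene. In the GFP cultures at 6 h, ENSRNOG00000017386 had 0.228 and 5.01 CPM in culture 1 and 51.9 to 102 CPM in the 4 libraries of cultures 2 and 3. In the rMBD3 cultures at 6 h it had 5.41 and 1.88 CPM in culture 1 and 22.4 to 33.8 CPM in the others. Both virus sets had higher values at 24 h than at 6 h in each culture 1 pair and lower values in each pair of cultures 2 and 3.

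The change from 6 h to 24 h was next compared between media. When the time effect was allowed to differ by medium, 0 of 15844 genes passed for the difference (edgeR; smallest adjusted p = 0.9998, 174 genes at an unadjusted p under 0.05). DESeq2 called 49 genes for the same difference, 18 with the higher change in magnesium-free medium and 31 with the lower. Read separately from that edgeR fit, the time effect passed for 11 genes in magnesium medium (0.0694%), all higher at 24 h, and for 293 genes in magnesium-free medium (1.85%), 124 higher (0.783%) and 169 lower (1.07%). The separate counts are no test of the difference between media, which passed for 0 genes in edgeR and for 49 in DESeq2.

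Among the 885 genes that rose, the median log2 change was 0.82 with magnesium and 0.95 without it, and 552 had the larger rise without magnesium. Among the 964 that fell, it was -0.95 with magnesium and -1.27 without it, and 764 fell further without magnesium. The magnesium medium holds the 24 h library of culture 3 described above, whose part in this order was not tested. These counts are a description. The genes come from the same libraries and are not replicates of a medium effect, and the share over all genes tested was not taken.

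In ENSRNOG00000013179 the rise was 3.13 ± 0.57 with magnesium and 4.39 ± 0.59 without it (log2, SE). In ENSRNOG00000015049 it was 3.72 ± 0.50 and 3.41 ± 0.50. The fall of ENSRNOG00000014149 was -2.27 ± 0.69 with magnesium and -3.06 ± 0.72 without it. That of ENSRNOG00000002013 was -2.17 ± 0.41 and -3.13 ± 0.43. The differences between media, magnesium-free minus magnesium, were 1.26, -0.31, -0.79 and -0.96 for these genes in this order. None passed the edgeR test of the difference.

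The same contrast was fitted in the 12 GFP and the 12 rMBD3 libraries at these times. They share no library with the untransfected set but carry the same culture numbers, so they do not stand for further cultures. More genes passed there, 6027 of 15694 in GFP cultures (38.4%; 2929 higher, 18.7%, and 3098 lower, 19.7%) and 6707 of 15469 in rMBD3 cultures (43.4%; 3088 higher, 20%, and 3619 lower, 23.4%). Leaving out culture 3 moved these to 2939 and 2222, and leaving out culture 2 moved the rMBD3 count to 3533.

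Of the 885 genes that rose without virus, 743 (84.0%) also rose in the GFP cultures, where they made up 25.4% of the genes that rose, and 0 fell. Of the 964 that fell, 907 (94.1%) also fell with GFP, 29.3% of the genes falling there, and 0 rose. With rMBD3, 720 of the 885 rose (81.4%, and 23.3% of that list) and 914 of the 964 fell (94.8%, and 25.3% of that list), with 0 in the opposite direction. All 15 named genes in each direction passed in the same direction with GFP, and 13 of the 15 rising and all 15 falling genes did with rMBD3.

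The printed genes had the same direction with either virus. ENSRNOG00000013179 had 0.692 ± 0.344 CPM at 6 h and 11.1 ± 7.74 at 24 h with GFP, and 0.876 ± 0.378 and 6.68 ± 3.78 with rMBD3 (SD, n = 6 each). ENSRNOG00000014149 went from 11.2 ± 3.00 to 1.23 ± 1.49 CPM with GFP and from 9.68 ± 2.60 to 1.29 ± 2.08 with rMBD3. ENSRNOG00000002013 went from 18.3 ± 3.97 to 3.34 ± 1.95 CPM with GFP and from 12.9 ± 2.94 to 1.38 ± 1.11 with rMBD3. ENSRNOG00000015049 reached 4.31 ± 1.78 CPM at 24 h with GFP and 4.94 ± 1.13 with rMBD3, where the untransfected libraries had 12.3 ± 6.12.

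Whether the time effect itself differed was tested over the 36 libraries of all 3 constructs. For GFP against untransfected, 0 of 16909 genes passed (edgeR; smallest adjusted p = 0.865, 945 genes at an unadjusted p under 0.05). For rMBD3 against untransfected 0 passed (smallest adjusted p = 0.0908, 2395 at an unadjusted p under 0.05), but 115 passed without culture 1, of which 22 had the higher and 93 the lower change with rMBD3. No other tool was run for these differences. The counts of 1849, 6027 and 6707 genes thus differ without a tested difference in the time effect of any gene when all cultures are kept.

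The genes were then sorted by genomic span, from the first to the last base of the annotated exons. The shares are given as a description, without a test. Of 2121 genes of 50 to 100 kb, 8.49% rose and 6.22% fell, and of 1286 genes of 100 to 200 kb, 9.56% rose and 6.77% fell. Genes of 200 to 500 kb rose in 8.30% and fell in 10.97% of 711. Of the 201 tested genes spanning over 500 kb, 37 fell (18.4%) and 11 rose (5.47%), out of 221 such genes in the table. Over all genes tested, 6.08% fell and 5.59% rose. Without overlap between the times, 3 of the 201 were lower and 2 higher, where 2.26% and 1.99% of all genes tested were. The shortest class, under 10 kb, had 2.95% rising and 5.42% falling among 4683 genes.

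The 37 very long genes that fell had log2 fold changes of -2.15 to -0.65, and the 11 that rose had 0.41 to 3.98. Over all 201, 145 lay below 0 and the median was -0.46, against 0.04 over all genes tested. Exonic length, which sets how many reads a transcript can give, was also greater for these genes, with a median of 4799 bases against 2949. By level, 0 of the 19 very long genes with a mean log2 CPM under 0 fell and 0 of the 34 from 0 to 2, against 0.952% and 4.32% of all genes at those levels. From 2 to 4, 30% of 60 fell (8.47% of all genes), from 4 to 6, 24.2% of 62 (7.47%), and from 6 to 8, 16% of 25 (6.51%). The 1 such gene over 8 did not pass. The median log2 fold change in the classes up to 8 was -0.16, -0.69, -0.60, -0.49 and -0.23, from the lowest level upwards. The 34 genes from 0 to 2 were thus lower at 24 h by median although none was called. In the virus cultures 44.1% (GFP) and 50% (rMBD3) of those 34 fell, against 15.06% and 22.01% of all genes tested there at that level.

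The level of the very long genes was set out by library. The median CPM over the 201 genes was 10.97, 12.7 and 19.99 at 6 h (lowest, median and highest library) and 4.61, 8.90 and 18.3 at 24 h, so that the times overlapped. Culture 1 went from 19.99 to 18.3 CPM with magnesium and from 13.2 to 12.2 without it. In culture 2 the change was from 11.8 to 4.61 and from 12.2 to 4.74 CPM. Culture 3 went from 13.4 to 11.6 CPM with magnesium and from 10.97 to 6.20 without it.

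Relative to all genes of the same pair, the median difference of the very long genes was -0.09 and 0.09 in culture 1, -1.04 and -1.19 in culture 2, and 0.00 and -0.87 in culture 3 (log2, with and without magnesium). It was -0.61 to -1.53 in the 6 GFP pairs and -0.23 to -1.78 in the 6 rMBD3 pairs. Without culture 2, 1 of 202 genes over 500 kb fell (0.495%, against 0.228% of all genes tested), so that few genes of any span were called, and without the 24 h library of culture 3 in magnesium medium 67 of 202 did (33.2%, against 12.7% of all genes tested). With no culture block, 5 of 201 fell (2.49%, against 1.62% of all genes tested). The pairs with little change are the same 3 whose 24 h libraries had mitochondrial shares of 3.16% to 4.90%, and the part of that share in the result was not tested.

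At 2 h the untransfected libraries had a median of 21.3, 25.9 and 33.2 CPM over these genes (lowest, median, highest). Every 2 h library was therefore above every 6 h library, and the 24 h libraries ranged from well below to close to the 6 h values. In the GFP cultures the corresponding medians were 12.5, 14.4 and 19.7 CPM at 6 h and 3.99, 7.88 and 11.7 at 24 h, with no overlap between the times. In the rMBD3 cultures they were 10.4, 13.7 and 15.0 at 6 h and 3.52, 3.90 and 11.9 at 24 h.

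**Figure D5:**
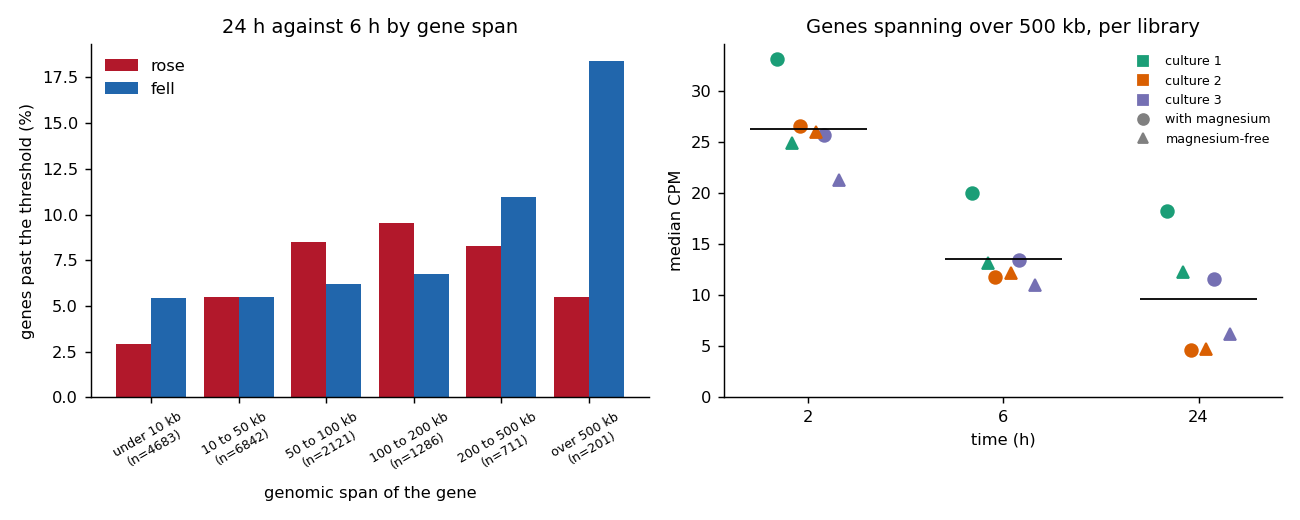
Left, the percentage of tested genes that rose or fell from 6 h to 24 h in the untransfected cultures by genomic span, with the number of genes under each class. Right, the median CPM of the genes over 500 kb in each of the 18 untransfected libraries by time, with lines at the mean of 6; the 6 h and 24 h libraries overlap because culture 1 and the magnesium library of culture 3 stay high.

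Level and position were looked at in the same way. Genes with a mean log2 CPM under 0 passed rarely, 0.454% rising and 0.952% falling of 2205. In the classes from 2 to 8 the shares ran from 5.86% to 7.87% rising and 6.51% to 8.47% falling. Genes of over 8 kb of exon rose in 9.86% and fell in 6.46% of 882. By chromosome, the X chromosome had 2.78% rising and 7.41% falling among 540 genes, and chromosome 8 had 8.26% rising and 6.77% falling among 872. Among 26 genes on unplaced sequence 4 rose (15.4%) and 0 fell.

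Neighbouring genes, by order along the chromosome among the genes tested, were also compared. Of the 885 that rose, 136 (15.4%) had at least 1 rising gene next to them, against 10.8% of all tested genes with a rising neighbour. Of the 964 that fell, 182 (18.9%) had a falling neighbour, against 11.8%. Runs of 3 consecutive genes were found 8 times for rising and 4 times for falling genes, and none was longer. Overlapping genes and near-identical copies, which can share reads, were not separated here.

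The mitochondrial genome encodes subunits of the respiratory chain together with ribosomal and transfer RNAs. Its transcripts took 2.42% ± 1.22 of counts in the 6 h libraries and 3.06% ± 1.26 in the 24 h libraries (SD, n = 6). The share was higher at 24 h in 3 of 6 pairs, and an exact two-sided sign-flip permutation test gave p = 0.375, where 0.0312 is the smallest it can give with 6 pairs. It flipped the 6 pairs independently, although the 2 media of a number share a culture, so it did not take the 3 cultures as units. Of 37 mitochondrial genes 23 were tested and 0 passed (edgeR; smallest adjusted p = 0.0722, 3 at an unadjusted p under 0.05), while DESeq2 called 2 of 24, both higher at 24 h. Their log2 fold changes were -1.54 to 1.18, and 19 of the 23 were above 0, a count not set against all genes tested. The 15 of these over 200 bases had -0.17 to 0.84. The median over the 23 was 0.37, and over the 21 also tested there it was -0.07 with GFP and -0.48 with rMBD3.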

How the data were processed

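The deposited count table gave whole-number counts per Ensembl gene (mRatBN7.2, release 105), made by the authors with featureCounts 2.0.0 on read pairs, stranded, primary alignments with mapping quality of at least 3, per the file headers. The labels' protocol names STAR and the rn6 build, and the submitters' processing notes name mRatBN7.2, Trim Galore, Salmon and SAMtools. Of 30560 identifiers 24177 had a count and 0 matched the symbols of 47357 genes (GRCr8).

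Counts were tested with edgeR 4.0.16 in R 4.3.3 (filterByExpr with a minimum count of 10 and a minimum total of 15, TMM, robust quasi-likelihood fit, adjusted p under 0.05 by Benjamini-Hochberg). CPM was scaled by TMM over the 54 libraries. Standard errors were the size of the log2 change divided by the square root of F. The labels give culture numbers as replicates, and same-numbered libraries deviated together with a mean correlation of 0.257 (-0.137 to 0.516 over 18 pairs of libraries), so not every pair was above 0.1. No 2 libraries of a group were copies (chi-square per gene of 23.2 to 358). Alternatives were no culture block, each culture left out, other scaling, no filter, DESeq2 1.42.0, all 54 libraries and each medium alone. Of the tests, only the additive edgeR fit of time in the untransfected cultures was tried on simulated counts. These had the same dispersion for every gene and no difference in the time effect between cultures. The members, lists and naming rule (15 genes per direction; 2 printed, with no further identifiers, as no symbols matched) were chosen with earlier results of these data known.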

Additional observations from a re-analysis of the deposited data

Results flagged for a closer look

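In 20 groups of 6 libraries tested for a value standing apart from the rest, 3 had one, where chance gives about 1 in 20 groups. ENSRNOG00000002013 had 23.1 CPM in the 6 h library of culture 3 with magnesium, above the other 6 h libraries. Mitochondrial transcripts took 4.90% of counts in the 6 h library of culture 1 with magnesium. In that same library, the median log2 deviation of genes spanning over 500 kb from their mean, relative to all genes, was 0.85, the highest at 6 h. The change of ENSRNOG00000017386 from 6 h to 24 h differed among the 3 cultures (adjusted p = 0.00611, edgeR test of culture by time, chosen after seeing the data).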

How the results depend on the processing

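The 1849 genes of the 24 h against 6 h comparison became 593 (337 higher, 256 lower) without the replicate block, 2991 with DESeq2 (all 1849 among them), 3725 with all 54 libraries, and 3647 without the 24 h magnesium library of culture 3. Fitted in magnesium medium alone or magnesium-free medium alone, edgeR called 0 genes in each (1316 and 3735 at an unadjusted p under 0.05), with 3 libraries per time; neither was run with another tool. Leaving out a culture gave 75 to 1765 genes, the lowest without culture 2. The difference between media gave 0 genes in every edgeR fit and 49 with DESeq2. The GFP count was 3966 without the replicate block and 2939 to 5557 with a culture left out (lowest without culture 3). The rMBD3 count was 2222 to 9316 with a culture left out (lowest without culture 3, 3533 without culture 2) and 5277 without the replicate block. The time effect of rMBD3 minus untransfected gave 0 to 115 genes with a culture left out, the highest without culture 1, and that of GFP gave 0 throughout. The 4 printed genes kept their direction in all 44 repeats (4 genes in 11 settings), and 10 no longer passed, 8 of these in a single medium. The causes were not tested.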
